A study of Mus musculus with 4 samples.

Results

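The cells described here were 243 cells of mouse lung tumors that passed an epithelial gate, carried Hopx RNA and had little RNA of 4 alveolar type II (ATII) genes. They were selected on raw UMIs (unique molecular identifiers, 1 per captured RNA molecule) in a droplet-based single-cell matrix of 20351 cells. A cell was kept with at least 200 detected genes and at most 13.4% of its UMIs in mitochondrial genes, which left 19892 cells. It was epithelial-gated with at least 3 UMIs summed over Epcam, Cdh1, Krt8, Krt18 and Cldn18 and no UMI of Ptprc, the pan-leukocyte gene, which left 1067 cells. The 243 cells had in addition at least 1 UMI of Hopx and at most 4 UMIs summed over Cxcl15, Slc34a2, Etv5 and Hc. They were 22.8% of the epithelial-gated cells (exact Clopper-Pearson 95% interval 20.3 to 25.4%) and 1.22% of all kept cells (1.07 to 1.38%). The levels of these 11 rule genes were used in the selection and are given only as a description.

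The tumors came from 4 female mice with a Cre reporter and a trappable Lkb1 allele, dissociated to single cells from which dead cells were removed. All 4 were Lkb1XTR/XTR. At Rosa26 the 2 Non-Restored mice carried LSL-tdTomato and the 2 Restored mice carried LSL-tdTomato/FLPo-ERT2. In all 4, intratracheal Lenti-Cre switched on TdTomato and inverted a GFP-bearing gene trap in Lkb1 wherever a cell was transduced, so that any lung cell type reached by the virus could be labelled. Tumors grew for 16 weeks and the mice were given 4 mg tamoxifen doses over the last 2 weeks, as the sample labels state, which activates FLPo-ERT2 and removes the trap in the Restored mice alone. The series' design text also names a vehicle arm. The 4 mice were pooled in 1 matrix and cells were not assigned to mice here, so the matrix is 1 sample. Restored and Non-Restored cells were therefore not compared, no test was run, and every interval below covers counting error only.

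The alveolar surface is lined by flat alveolar type I (ATI) cells, which carry out gas exchange, and by cuboidal ATII cells, which make surfactant and can divide and turn into ATI cells. During that conversion, cells pass through a transitional state with keratins and injury-response genes. HOPX is a homeodomain-only protein without DNA binding of its own that marks ATI cells and their precursors. In lung tumors, cells derived from ATII cells can carry features of each of these states.

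Promoter windows of 3 genes are shown because these genes carry the description, Hopx as the gene that selected the cells, Ager as the ATI gene whose per-cell level was most like that of Hopx, and Lcn2 as the ATII-list gene furthest below the other epithelial cells on the log2(CPM + 10) scale used below. Each runs from 250 bases before to 50 bases after a RefSeq start in GRCm38.p6 (mm10), 5′ to 3′ on the strand of the gene. Hopx lies at chr5:77095218-77095517 on the minus strand, at one of its annotated starts. Ager lies at chr17:34597600-34597899 on the plus strand, and Lcn2 at chr2:32387690-32387989 on the minus strand. Capitals mark matches, on either strand, to the NKX2-1 core CAAGTG, the TEAD core GGAATG or the C/EBP core TTGCNNAA.
Hopx: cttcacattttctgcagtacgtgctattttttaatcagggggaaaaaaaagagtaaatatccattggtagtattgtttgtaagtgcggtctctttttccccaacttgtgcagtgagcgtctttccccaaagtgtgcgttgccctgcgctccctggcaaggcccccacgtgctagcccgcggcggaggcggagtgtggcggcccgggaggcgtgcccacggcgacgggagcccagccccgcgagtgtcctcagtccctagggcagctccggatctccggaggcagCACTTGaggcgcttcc
Ager: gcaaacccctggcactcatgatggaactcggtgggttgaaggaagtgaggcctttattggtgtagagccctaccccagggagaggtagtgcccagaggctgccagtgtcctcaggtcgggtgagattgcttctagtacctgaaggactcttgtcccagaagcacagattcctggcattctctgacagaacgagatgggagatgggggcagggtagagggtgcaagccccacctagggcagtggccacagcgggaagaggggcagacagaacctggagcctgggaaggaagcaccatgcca
Lcn2: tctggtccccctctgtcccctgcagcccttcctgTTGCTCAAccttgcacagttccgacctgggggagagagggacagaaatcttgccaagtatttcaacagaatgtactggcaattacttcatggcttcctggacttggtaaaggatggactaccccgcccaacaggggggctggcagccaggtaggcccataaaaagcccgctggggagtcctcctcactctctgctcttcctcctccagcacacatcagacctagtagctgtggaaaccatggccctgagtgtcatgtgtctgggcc
NKX2-1 and C/EBP proteins are transcription factors of ATII cells, and TEAD proteins are the DNA-binding partners of YAP and TAZ. This Hopx window held 1 NKX2-1 match, the Ager window held none of the 3 motifs, and the Lcn2 window held 1 C/EBP match. The window of the other annotated Hopx start, at chr5:77115074-77115373 on the minus strand, held 0 matches of the 3 motifs. Of 27025 genes with a window, 15.4% held the NKX2-1 core in at least 1 window, 16.6% the TEAD core and 12.2% the C/EBP core, and of all 32851 windows 13.6%, 14.7% and 10.8%. Windows were found for 17 of the 20 ATI-list genes, of which 4 held the NKX2-1 core, 1 the TEAD core and 0 the C/EBP core. Of the 14 ATII-list genes found, 4 held the NKX2-1 core, 6 the TEAD core and 4 the C/EBP core. The matches describe letters in these windows only.

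The label of ATI-like cells was checked against marker genes of 12 other cell classes (72 genes). A cell with at least 3 UMIs summed over all 12 lists together is called marked below. A single list was passed with at least 3 UMIs over its own genes. Of the 243 cells, 161 were unmarked and 82 (33.7%) were marked. The ciliated-cell list was passed by 29 cells (11.9%), the club-cell list by 19 and the macrophage or monocyte list by 38 (15.6%). The endothelial list and the T or NK cell list were passed by 3 cells each, the fibroblast list by 2, and the basal, mesothelial, B cell and neutrophil lists by 1 each. No cell passed the tuft or neuroendocrine lists. The basal genes Trp63, Krt5 and Krt14, the tuft genes Pou2f3 and Trpm5 and the neuroendocrine genes Chga and Syp were all at 0 UMIs. A fixed number of UMIs is passed more easily by deep cells, and marked cells had a median of 4137 UMIs against 2378 in unmarked cells.

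The marked cells differed from the unmarked cells in Ager and the reporter. TdTomato, the red reporter of Cre activity, was at 6166 CPM (UMIs of the gene per 1000000 UMIs, with all UMIs of a group summed) in unmarked cells, 2186 CPM in the cells past the ciliated list and 293 CPM in those past the macrophage list. Ager, which encodes the receptor for advanced glycation end products of the ATI membrane, was at 3704, 793 and 154 CPM in the same order. Foxj1, the master regulator of motile cilia, had 38 UMIs, all in cells past the ciliated list, of which it is a member. C1qa, a complement gene of macrophages, stood at 1436 CPM in cells past the macrophage list, against 0 UMIs in unmarked cells, where 0 allows up to 6.59 CPM. C1qa is likewise on the list that marked these cells, so both patterns follow from the marking. The macrophage-marked cells also held the chemokine gene Ccl17, which is on none of the lists, at 3967 CPM, against 4.39 CPM in unmarked cells. Of these 38 cells, 28 had no TdTomato UMI. Ager and TdTomato, which are on none of the marking lists, were highest in the unmarked cells. The 243 cells are called Hopx-positive, ATII-low cells, with each main value also given for the 161 unmarked cells against unmarked cells of the other groups.

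**Figure D1:**
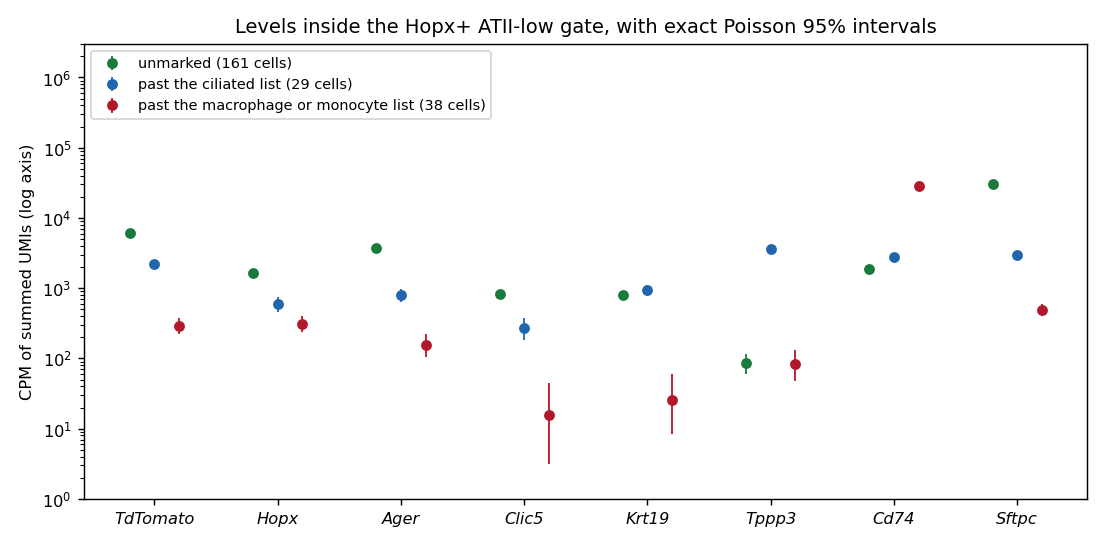
Levels of 8 genes in Hopx-positive, ATII-low cells, in CPM on a log axis, for 161 unmarked cells (green), 29 cells past the ciliated list (blue) and 38 past the macrophage or monocyte list (red). Points are CPM of summed UMIs and bars are exact Poisson 95% intervals, and a group at 0 UMIs has no point. TdTomato fell in the order 6166, 2186 and 293 CPM, and Cd74 was highest in the macrophage-marked cells at 28068 CPM.

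The comparison groups were the 824 other epithelial-gated cells, and within them 469 Hopx-negative ATII cells (no Hopx, more than 4 UMIs over the 4 ATII genes), 107 double-positive cells (Hopx and more than 4 ATII UMIs) and 248 Hopx-negative, ATII-low cells. The last group was mostly marked (66.5%), so its 83 unmarked cells are a small remainder. Hopx-positive, ATII-low cells were shallower, with 710 to 14751 UMIs and a median of 2794, against a median of 4617 in the other epithelial-gated cells. An ATII limit set as a count is met more easily by shallow cells. With the limit set at 0.1% of the UMIs of a cell in place of 4 UMIs, 232 cells met the rule.

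TdTomato did not set the Hopx-positive, ATII-low cells apart from other tumor epithelium. It ran from 0 to 96 UMIs per cell with a median of 11, and 201 of the 243 cells had at least 1 UMI. In unmarked cells 157 of 161 had a TdTomato UMI. With every cell thinned to 1000 UMIs, 94.2% of unmarked cells kept a TdTomato UMI, against 12.2% of lymphocytes (median depth 1775 UMIs, 22% before thinning), which should lack the reporter. The summed level was 4137 CPM (exact Poisson 95% interval 3999 to 4280) in all 243 cells and 4765 CPM in the other epithelial-gated cells, a log2 ratio of -0.20, and among unmarked cells the direction turned, with 6166 and 5778 CPM and a log2 ratio of 0.09. GFP, carried by the inverted trap, had 22 UMIs over the 243 cells. Stk11, which encodes LKB1, had 18 UMIs (22.2 CPM, against 24.0 CPM), too few for any statement about the trap in single cells.

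Genes were compared between groups when they reached 50 CPM in at least 1 of them, and a gene is called higher or lower past 2-fold on the scale of log2(CPM + 10). Against the other epithelial-gated cells, 3002 genes were compared, of which 212 (7.06%) were higher and 150 (5.0%) lower in Hopx-positive, ATII-low cells. Among unmarked cells 226 of 2908 genes (7.77%) were higher and 196 (6.74%) lower. Unmarked cells against unmarked Hopx-negative ATII cells gave 290 of 2934 genes (9.88%) higher and 234 (7.98%) lower. The median gene lay above 0 on the log2 scale in these comparisons, by 0.23, 0.21 and 0.23, and list values below are to be read against that shift. With totals taken without the ATII genes the first comparison gave 163 genes higher and 206 lower, and with a median-of-ratios scaling 138 and 199, so the balance of higher and lower genes turned with the scaling. The genes were counted on the same cells that were selected, so the counts describe the selection and test nothing. A gene that reached 50 CPM only in the group where it was high was bound towards a difference by that filter. The number of such genes is given beside most lists, and the counts and medians of lists are not read as support.

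ATI genes were higher almost throughout. Of the 14 ATI-list genes at the compared level, Hopx not among them, 12 were higher and 0 lower than in the other epithelial-gated cells. Their median log2 ratio was 1.82, and 6 of the 12 reached 50 CPM only in the selected cells. The share of all compared genes that were higher was 7.06%, and 7.77% among unmarked cells. The summed list was at 7617 CPM against 2398 CPM (log2 1.67, exact 95% interval 1.62 to 1.71). Among unmarked cells 13 of 14 were higher, with sums of 11286 and 2770 CPM (log2 2.03, 1.98 to 2.08). The exception among unmarked cells was Vegfa, the endothelial growth factor that ATI cells secrete, at 246 against 163 CPM.

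Ager was found in 183 of the 243 cells and ran from 0 to 46 UMIs per cell with a median of 6. In unmarked cells 156 of 161 had Ager, with a median of 9 UMIs, against a median of 2 UMIs in unmarked Hopx-negative ATII cells, although those were deeper. The per-cell ranges overlapped, since 336 of the 414 unmarked Hopx-negative ATII cells also had an Ager UMI. Over all UMIs Ager was at 2435 CPM in the selected cells and 641 CPM in the other epithelial-gated cells (log2 1.92, 1.84 to 2.01). After thinning, 87.8% of unmarked selected cells, 43.2% of unmarked Hopx-negative ATII cells and 0.28% of lymphocytes had Ager.

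Clic5, a chloride intracellular channel protein that tethers membrane to the cortical cytoskeleton, ran from 0 to 15 UMIs per cell with a median of 1. Most of the selected cells, 163 of 243, had at least 1 UMI. Its level was 543 CPM against 95.4 CPM (log2 2.51), and 830 against 106 CPM among unmarked cells. Akap5, an anchoring protein for protein kinase A, was at 275 against 26.8 CPM (log2 3.36) and stood nearly absent from unmarked Hopx-negative ATII cells, at 9.48 CPM. It ran from 0 to 7 UMIs per cell, and 106 of the 243 cells had it. The unmarked values were 417 and 26.3 CPM.

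Membrane and matrix genes of ATI cells followed the same order. Aqp5, the water channel of the apical ATI membrane, was at 1162 against 613 CPM, just under 2-fold in all cells and past it among unmarked cells (1763 against 766 CPM). Emp2, a tetraspan membrane protein, was at 1093 against 323 CPM. Col4a3 and Col4a4 encode collagen IV chains of the alveolar basement membrane, and were at 137 against 17.1 CPM and 174 against 37.7 CPM. Lmo7, which links adherens junctions to actin, was at 577 against 146 CPM. Spock2, a matrix proteoglycan of ATI cells, was sparse, with 54 UMIs in all, at 66.5 against 4.88 CPM. Pdpn, Rtkn2, Cav1 and Igfbp2, classical ATI genes, stayed under the compared level at 34.5, 33.3, 30.8 and 17.2 CPM. Their counts were 28, 27, 25 and 14 UMIs over all 243 cells, too few for a comparison cell by cell.

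**Figure D2:**
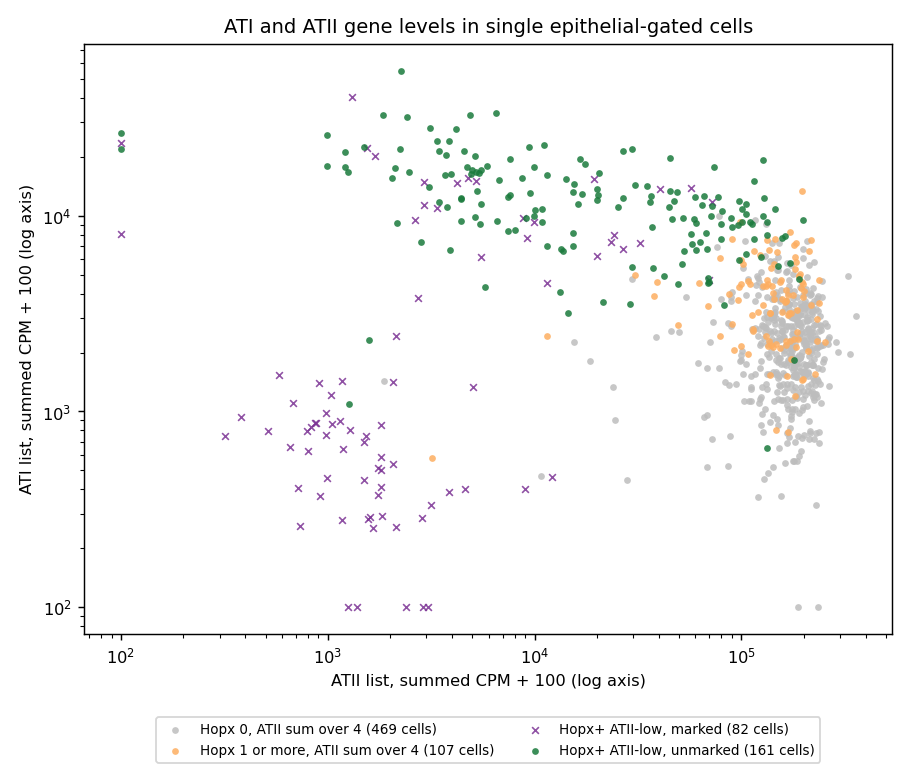
Each point is 1 epithelial-gated cell (Hopx-negative, ATII-low cells are not drawn), with the summed CPM of the ATII list on the x axis and of the ATI list on the y axis, each plus 100 on a log axis, and without the rule genes. Unmarked Hopx-positive, ATII-low cells (green) lay above most Hopx-negative ATII cells (grey), with median ATI sums of 11315 and 2161 CPM over unmarked cells, and spread widely along the ATII axis. Many marked cells (purple crosses) sat low on each axis.

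Transitional genes formed the second raised group. Of 17 at the compared level, 9 were higher and 1 lower in the selected cells, against 7.06% and 5.0% of all compared genes. The median log2 ratio was 1.26, and 3 of the 9 reached 50 CPM only in the selected cells. The sums were 14973 against 5619 CPM (log2 1.41, 1.38 to 1.45). Among unmarked cells 9 of 15 were higher and 1 lower, against 7.77% and 6.74% of all compared genes, and the sum differed by a log2 ratio of 1.84. Against unmarked Hopx-negative ATII cells alone the ratio was 2.62. These sums rest largely on 1 gene, since S100a6 alone made up 8203 CPM of the 14973 CPM in the selected cells. They were also uneven over cells, with 10 of the 161 unmarked cells holding 38.4% of the list's UMIs.

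S100a6, a calcium-binding protein of stressed and migrating epithelium, ran from 0 to 287 UMIs per cell with a median of 17 in the selected cells. Among unmarked cells 159 of 161 had at least 1 UMI, against 160 of 414 unmarked Hopx-negative ATII cells, where the median was 0. The levels were 10030 CPM (9741 to 10325) and 335 CPM, and the highest Hopx-negative ATII cell reached 71 UMIs, so the ranges overlapped. Lymphocytes also carry this gene (41.9% of thinned cells), so its presence alone does not mark epithelium.

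Among the keratins, Krt19 ran from 0 to 31 UMIs per cell with a median of 1 and was found in 155 of 243 cells. Its level was 622 against 180 CPM (log2 1.79) in all cells and 788 against 188 CPM among unmarked cells. Krt7 was at 535 against 142 CPM. Thinned to 1000 UMIs, 43.3% of selected cells had Krt19, against 13.9% of other epithelial-gated cells and 0.28% of lymphocytes, and before thinning 63.8% of selected cells had it. Krt19 is expressed by airway cells too, and the cells past the ciliated list held it at 939 CPM.

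Cldn4, a tight-junction claudin raised in injured alveoli, was in 36 of 243 cells, from 0 to 9 UMIs, and 10 cells held 58.8% of its UMIs. Its level was 83.8 against 23.3 CPM. In unmarked Hopx-negative ATII cells it was at 3.49 CPM. Clu, the secreted chaperone clusterin, was at 1562 against 607 CPM. Itgb6, the integrin chain that activates TGF-beta, was at 70.2 against 14.9 CPM. Sprr1a, a cornified-envelope protein, averaged 153 against 37.5 CPM, but 8 cells held all of its UMIs. Cdkn1a, Hbegf, Sfn and Areg did not pass 2-fold, with Areg, an EGF-family ligand, at 878 against 533 CPM. Nupr1, a stress-induced chromatin protein, was the 1 list member lower, at 145 against 440 CPM.

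The transitional genes were not particular to cells with Hopx. The 83 unmarked Hopx-negative, ATII-low cells held S100a6 at 13665 CPM, Krt19 at 816 CPM, Clu at 4222 CPM and Cldn4 at 282 CPM. The unmarked selected cells held the same genes at 10030, 788, 2402 and 114 CPM, lower than these cells for S100a6, Clu and Cldn4 and with overlapping intervals for Krt19. Emp2 and Ager went the other way, at 714 and 966 CPM in the Hopx-negative, ATII-low cells and 1594 and 3704 CPM in the selected cells. Double-positive cells held S100a6 at 864 CPM and Krt19 at 184 CPM, nearer to Hopx-negative ATII cells than to the selected cells.

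**Figure D3:**
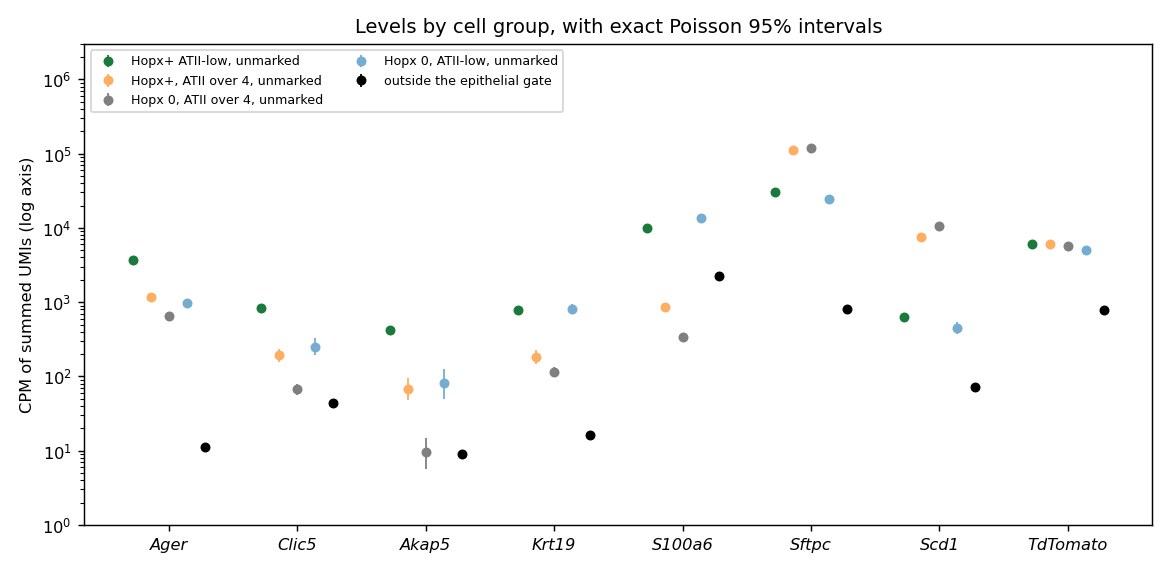
Levels of 8 genes in 5 groups of cells, in CPM of summed UMIs on a log axis with exact Poisson 95% intervals (4 unmarked epithelial groups and all 18825 cells outside the epithelial gate). Ager, Clic5 and Akap5 were highest in Hopx-positive, ATII-low cells, S100a6 was high in both ATII-low groups, Sftpc and Scd1 were high in both groups with more than 4 ATII UMIs, and TdTomato was between 5017 and 6166 CPM in all 4 epithelial groups.

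ATII genes outside the rule were lower, yet far from absent. Of 20 at the compared level, 0 were higher and 18 lower, of which 5 reached 50 CPM only in the other cells. The share of all compared genes that were lower was 5.0%, and 6.74% among unmarked cells. The sums were 27673 against 130534 CPM (log2 -2.24, -2.26 to -2.22). Among unmarked cells 15 of 20 were lower, with sums of 45544 against 162370 CPM (log2 -1.83). The median log2 ratios of the list were -2.44 and -2.15.

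Sftpc, surfactant protein C, ran from 0 to 958 UMIs per cell with a median of 2, and 155 of 243 cells had it. Its RNA was uneven, with 10 cells holding 30.6% of the UMIs. In unmarked cells the median was 17 UMIs and 128 of 161 cells had Sftpc, against a median of 555.5 UMIs in unmarked Hopx-negative ATII cells. The ranges overlapped, and the levels were 18061 against 86499 CPM in all cells and 30923 against 109887 CPM among unmarked cells. After thinning, 75.6% of unmarked selected cells had Sftpc, well above the 6.09% of lymphocytes.

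Sftpb and Sftpd were lower by smaller steps than Sftpc, at 2370 against 7379 CPM and 1143 against 3044 CPM. Sftpa1 was lower by a larger step, at 1807 against 12285 CPM. Lamp3, of the lamellar bodies that store surfactant, was at 25.9 against 546 CPM, and Abca3, which loads their lipid, at 65.3 against 387 CPM. Ctsh and Napsa encode proteases that process surfactant proteins. Ctsh was not lower, at 1651 against 1453 CPM, and Napsa passed 2-fold in all cells (733 against 1525 CPM) but not among unmarked cells (981 against 1780 CPM). Against the other epithelial-gated cells S100g and Sftpd likewise passed 2-fold in all cells and not among unmarked cells (577 against 1001 CPM and 1860 against 3657 CPM).

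Within the ATII list, Lcn2 had the lowest ratio on the log2(CPM + 10) scale. Lcn2, lipocalin-2, had 9 UMIs in 243 cells, at 11.1 CPM (5.07 to 21.0) against 1220 CPM, a log2 ratio of -6.78. A Lcn2 UMI was found in 2.47% of the selected cells. Lyz2, lysozyme 2, was at 333 against 3974 CPM, and 89.6% of its UMIs in the selected cells lay in marked cells. In unmarked cells it was at 61.5 against 4685 CPM, and the 12.4% of cells with a Lyz2 UMI did not exceed the 14.8% of lymphocytes, so this level is read as background. Lyz1 and Lyz2 are close paralogs whose reads may be split between them, and Lyz1 had 1 UMI.

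Lipid synthesis moved with the surfactant genes. Of 11 lipid genes at the compared level 0 were higher and 9 lower, of which 5 reached 50 CPM only in the other cells, where 5.0% of all compared genes were lower. The sums were 1210 against 10410 CPM (log2 -3.10, -3.20 to -3.01). The median log2 ratio was -1.20, smaller in size than that of the sum, in which Scd1 alone made up 7611 CPM of the other cells. Scd1, the stearoyl-CoA desaturase, ran from 0 to 23 UMIs per cell with a median of 0. The median was 1 UMI in unmarked selected cells, against 40 UMIs in the deeper unmarked Hopx-negative ATII cells. Over all UMIs Scd1 was at 429 against 7611 CPM (log2 -4.15). Fasn, fatty acid synthase, was at 38.2 against 528 CPM, and Elovl1, a fatty acid elongase, at 145 against 831 CPM. Srebf1, the regulator of lipogenic genes, was at 41.9 against 101 CPM. Fdps, an enzyme of cholesterol synthesis, did not pass 2-fold in all cells (39.4 against 65.7 CPM).

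**Figure D4:**
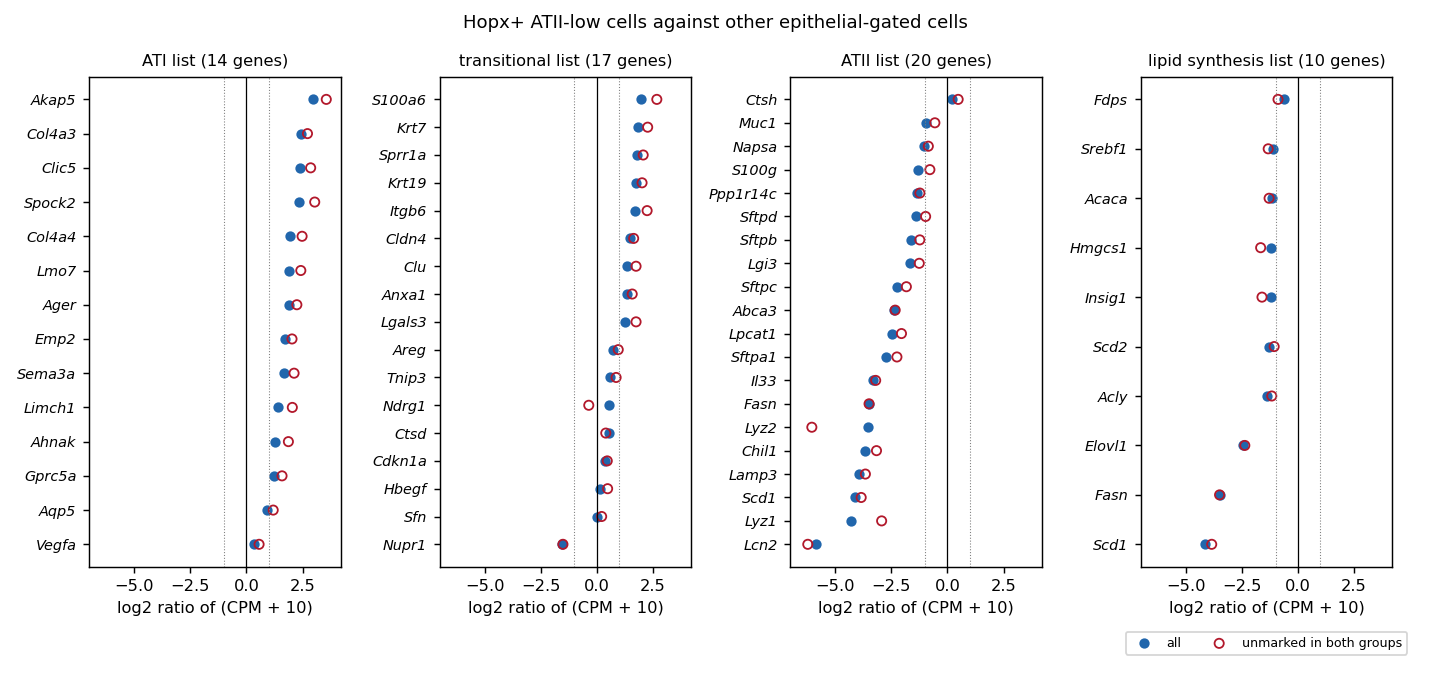
Log2 ratio of (CPM + 10) between Hopx-positive, ATII-low cells and other epithelial-gated cells for the genes of 4 lists, with all cells as filled blue points and unmarked cells of each group as open red points. Dotted lines mark 2-fold, and 10 of the 11 lipid genes are drawn. Of the ATI genes 12 of 14 and of the transitional genes 9 of 17 lay past 2-fold to the right in all cells, while 18 of 20 ATII genes and 9 of 11 lipid genes lay past it to the left. The shares over all compared genes were 7.06% to the right and 5.0% to the left.

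Of 15 transcription factors of lung epithelium at the compared level, 0 were higher, 5 lower and 10 neither, with a median log2 ratio of -0.38, where 5.0% of all compared genes were lower. All 5 reached 50 CPM only in the other cells. Among unmarked cells 8 of 18 were lower (median log2 -0.67), 7 of them at 50 CPM only in the other cells, against 6.74% of all compared genes. Against unmarked Hopx-negative ATII cells 9 of 18 were lower, where 7.98% of all compared genes were lower. Nkx2-1, the lineage factor of ATI and ATII cells, was at 224 against 174 CPM in all cells and 312 against 206 CPM among unmarked cells. Foxa2 was at 82.5 against 91.2 CPM and Sox4 at 118 against 138 CPM. Cebpa, a C/EBP factor of ATII cells, was at 35.7 against 133 CPM (log2 -1.89, -2.48 to -1.36), and it was found in 23 of 243 cells. Without thinning, 14 of 161 unmarked cells had it, against 223 of 414 unmarked Hopx-negative ATII cells. The latter were deeper, with a median of 4524 against 2378 UMIs. Cebpb was not lower, at 227 against 159 CPM, while Cebpd passed 2-fold only among unmarked cells (72.5 against 168 CPM).

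Irx3, Irx5 and Tfcp2l1 completed the lower factors with Elf5, an ETS factor of distal epithelium. Elf5 had 2 UMIs in all cells and 0 in unmarked cells, against 84.9 CPM in the other unmarked cells, so that it was at least 12.9-fold lower at the floor of 3 counts. Irx3 was at 45.6 against 108 CPM, Irx5 at 33.3 against 81.2 CPM and Tfcp2l1 at 27.1 against 86.1 CPM. Id2, an inhibitor of bHLH factors, was at 158 against 208 CPM in all cells and at 30.7 against 177 CPM among unmarked cells, where it passed 2-fold.

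Of 6 genes of the YAP and TAZ list at the compared level, which holds YAP, TAZ and their partners besides targets, 3 were higher and 0 lower, and among unmarked cells 4 of 7 were higher. Tead1 and F3 reached 50 CPM only in the selected cells, as did 3 of the 4 among unmarked cells. Of all compared genes 7.06% were higher, and 7.77% among unmarked cells. Tead1, the DNA-binding partner of YAP, was at 127 against 37.7 CPM, Cyr61, a matricellular target, at 187 against 77.9 CPM, and F3, tissue factor, at 138 against 39.9 CPM. Ctgf joined them among unmarked cells, at 50.5 against 8.78 CPM. Yap1 was at 24.6 against 26 CPM and Wwtr1, which encodes TAZ, at 60.4 against 34.8 CPM, neither past 2-fold.

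Of the p53 and arrest genes 3 of 9 were higher and 0 lower, and all 3 reached 50 CPM only in the selected cells. The share of all compared genes that were higher was 7.06%, and 7.77% among unmarked cells. Phlda3, a p53 target that restrains AKT, was at 124 against 48.1 CPM. Cdkn2a and Cdkn2b, inhibitors of the cyclin D kinases, were at 82.5 against 32.8 CPM and 89.9 against 30 CPM. Among unmarked cells Ccng1 and Bax joined them, making 5 of 10, of which 2 reached 50 CPM only in the selected cells. No cell-cycle gene reached the compared level, and Mki67 and Birc5, proliferation markers, had 16 UMIs each, all in marked cells.

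Cytoskeletal and membrane genes were higher in 10 of 18 cases and lower in 0 (median log2 1.02), where 7.06% of all compared genes were higher. Among unmarked cells 14 of 18 were higher, against 7.77% of all compared genes. S100a6 and Anxa1 of this list belong to the transitional list as well. Examples were Anxa5, an annexin, at 525 against 195 CPM, S100a11 at 2802 against 1077 CPM and Msn, moesin, at 418 against 183 CPM. Of the basement membrane and integrin genes 3 of 9 were higher, namely Lama3, a laminin chain, at 76.4 against 14 CPM, Lamb2 at 83.8 against 36.6 CPM and Itga3 at 64.1 against 22 CPM, all 3 at 50 CPM only in the selected cells. Among tight-junction genes 1 of 10 was higher, Cldn4, and among TGF-beta genes 1 of 7, Itgb6, where 7.06% of all compared genes were higher. Counts of 1 gene this near that share are not read as a result about these lists. Cldn4 and Itgb6 belong to the transitional list as well, and both reached 50 CPM only in the selected cells. Among unmarked cells 3 of 10 tight-junction genes were higher, against 7.77% of all compared genes. This adds Ocln and Tjp1, which encode occludin and a junction scaffold. Of the 3 mesenchymal genes compared 1 was higher, Fn1, fibronectin, at 174 against 81.6 CPM. Vim, the mesenchymal filament, was at 437 CPM in all 243 cells and 11 CPM in unmarked cells.

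No gene of the EGFR list (5 compared), the MAPK feedback list (6) or the kinases around LKB1 (1) passed 2-fold in all cells. Of 10 glycolysis genes 1 was higher, Eno1, enolase, at 267 against 128 CPM, where 7.06% of all compared genes were higher. The MHC genes depended on the marked cells. In all cells 0 of 9 passed 2-fold and the sum was above that of the other cells (log2 0.22). Among unmarked cells 3 of 8 were lower, against 6.74% of all compared genes, and the sum fell below (log2 -0.74, -0.81 to -0.67). Cd74, the class II invariant chain, was at 8038 against 7092 CPM in all cells and at 1888 against 3383 CPM among unmarked cells, and 38 macrophage-marked cells held 5455 of its 6524 UMIs. MHC genes are a multigene family, so single-gene counts are uncertain.

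The largest ratios over all compared genes, listed genes among them, were also read with and without marked cells. Of the 15 genes with the largest ratios in all cells, 9 had at most 21% of their UMIs in marked cells. These were Akap5, Col4a3, Clic5, Spock2, Ndnf, Rbm24, Wfdc1, Cryab and Cavin2. The other 6 lay mostly in marked cells, with Tm4sf1 (94.2% of its UMIs), Tppp3 (92.3%), Aldh3b1 (87.8%), Arhgdig (86.4%), Tuba1a (79.0%) and Sec14l3 (71.7%). Marked cells held 356217 of all 811645 UMIs of the selected cells. Among unmarked cells Sec14l3 (167 against 23.0 CPM), Tuba1a (81.2 against 9.15 CPM) and Tppp3 (85.6 against 17.6 CPM) stayed past 2-fold. Tm4sf1, Aldh3b1 and Arhgdig were under the compared level there, at 17.6, 24.2 and 19.8 CPM in the selected cells. Tppp3, a tubulin-binding gene of ciliated cells, is on the ciliated list, so its share in marked cells and its 3610 CPM in the ciliated-marked cells follow from the marking.

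Among unmarked cells the genes led, in order of log2(CPM + 10) ratio, with Akap5 (3.56) and then Ndnf, a secreted neurotrophic factor, at 538 against 53.4 CPM. Cavin2 and Cavin3, which shape caveolae, were at 110 against 7.68 CPM and 266 against 41.3 CPM. Rbm24, an RNA-binding protein, was at 173 against 18.3 CPM, and Cryab, a small heat-shock protein, at 347 against 52.7 CPM. The keratin-associated gene Krtap17-1 was at 226 against 33.7 CPM. All of these were in over 20% of the unmarked cells.

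In the lower direction, Dlk1, a Notch-family ligand, had 2 UMIs in all 243 cells, at 2.46 against 430 CPM. Meg3, a noncoding RNA of the imprinted cluster that also holds Dlk1, was at 48.1 against 864 CPM. Lrg1, a secreted glycoprotein, had 0 UMIs in unmarked cells against 455 CPM, at least 69.0-fold lower at the floor of 3 counts. Il33, an alarmin of ATII cells, had 6 UMIs, at 7.39 against 164 CPM. The ratio of Igkc, an immunoglobulin gene, came from marked cells of the comparison group, since it was at 11 against 17.9 CPM among unmarked cells. Dmkn was at 48.3 against 911 CPM and Trf, transferrin, at 2.20 against 249 CPM among unmarked cells.

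Against the 18825 cells outside the epithelial gate, the 10 leading genes were Ager, Wfdc2, Aqp5, Cldn3, Krt7, 2200002D01Rik, Clic3, Lmo7, Clu and Cldn7. Ager led, at 2435 against 11.2 CPM. Wfdc2, a secreted protease inhibitor of lung epithelium, was at 2605 against 21.1 CPM but differed little from other unmarked epithelium (3153 against 2319 CPM). Cldn3 and Cldn7, claudins of epithelium, were likewise at 1118 against 728 CPM and 637 against 380 CPM within unmarked epithelium.

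The genes whose UMIs per cell were most like Hopx over 1051 epithelial-gated cells thinned to 1000 UMIs were Ager (Spearman's rho 0.46), Akap5 (0.42), Clic5 (0.41), Emp2 (0.40) and Malat1 (0.40). S100a6 (0.34), Cryab (0.33), the rule gene Cldn18 (0.33), Sparc (0.31) and Gprc5a (0.29) came next among 3634 candidates. Candidates were genes with UMIs in at least 10% of the selected cells, so they were admitted through the cells chosen by Hopx. In the 721 unmarked cells Ager stood at 0.51 and S100a6 at 0.45. The cells share 1 matrix and the rule used Hopx, so these values are a description.

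The selected cells were not uniform. Their ATII-list sum in unmarked cells ran from 2319 CPM at the 10th percentile through a median of 16934 CPM to 115256 CPM at the 90th percentile. Unmarked Hopx-negative ATII cells ran from 114720 through 176583 to 229045 CPM, so the upper tail of the selected cells met the lower tail of the ATII cells. The ATI-list sum varied less, at 5276, 11315 and 21694 CPM, against 825, 2161 and 4016 CPM. Of the 156 unmarked cells deep enough to be thinned to 1000 UMIs, 102 had both Ager and Sftpc and 130 had both Ager and TdTomato. Counted over the same 156 cells, 63 had Ager with Krt19 or Cldn4, and 10 had none of Ager, Krt19 and Cldn4.

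Cells with Krt19 or Cldn4 differed within the unmarked group. After thinning, 72 cells had at least 1 UMI of these genes and 84 had none, with 47 of the 72 at exactly 1 UMI, so the split is soft. S100a6 was at 11306 CPM (10542 to 12110) with them and 6417 CPM without. Krt8, the partner keratin, was at 1778 against 1000 CPM, and Ager at 5056 against 3619 CPM. Sftpc went the other way, at 19056 against 39429 CPM, while Sftpb differed less, at 3264 (2860 to 3709) against 3619 CPM (3224 to 4050), with overlapping intervals. Hopx was at 1736 against 2357 CPM. Median depth before thinning was 2576 and 2265.5 UMIs.

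**Figure D5:**
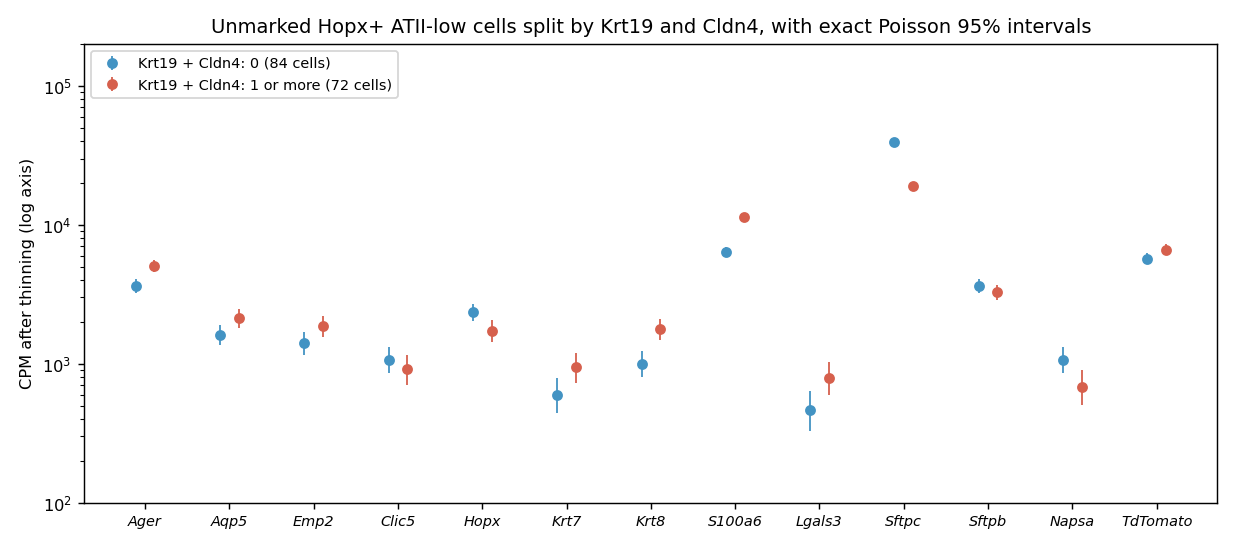
Unmarked Hopx-positive, ATII-low cells thinned to 1000 UMIs and split by the sum of Krt19 and Cldn4 (84 cells at 0 in blue, 72 cells at 1 or more in red), with CPM of summed UMIs on a log axis and exact Poisson 95% intervals for 13 genes. S100a6 and Krt8 were higher, and Sftpc lower, in cells with these genes, and the intervals of Sftpb and TdTomato overlapped.

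A second split was by Ager. Thinned unmarked cells without an Ager UMI numbered 19, against 137 with it. Clu was at 4158 CPM (3292 to 5182) without Ager and 847 CPM (700 to 1015) with it. S100a6 was at 12053 against 8204 CPM. Cldn4 was at 263 CPM without Ager, from 5 UMIs, and 29.2 CPM with it, from 4 UMIs. Hopx ran with Ager, at 737 CPM without and 2255 CPM with it, as did Nkx2-1 at 105 and 350 CPM, the first from 2 UMIs. How many tumors these 19 cells came from is not given by the pooled matrix.

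TdTomato-negative cells were mostly the marked ones. Among all selected cells thinned to 1000 UMIs, 51 had no TdTomato UMI, and 46 of these were marked. Cd74 was at 18863 CPM in these cells and 2193 CPM in the rest. In a separate thinning of the unmarked cells 9 had no TdTomato UMI and held Ager at 5111 CPM (3742 to 6818), with an interval that includes the 4231 CPM of the other 147.

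Values just inside and outside the limits of the rule are given as a description. The 81 cells with exactly 1 Hopx UMI had an ATI-list sum of 3250 CPM, TdTomato at 2850 CPM and 55.6% marked cells. The 162 cells with 2 or more had 10765 CPM, 5066 CPM and 22.8%. The 248 cells that met all limits but had no Hopx had 1516 CPM, 1632 CPM and 66.5%. At the ATII limit, the 22 selected cells with 3 or 4 ATII UMIs had an ATII-list sum of 88678 CPM, and 7 cells with 5 to 8 UMIs had 135168 CPM, against 13820 CPM in the 172 selected cells with none. At the epithelial limit, 11 selected cells had exactly 3 UMIs and TdTomato at 2018 CPM, and 12 cells just outside with 2 UMIs had 450 CPM. The 46 cells excluded for 1 Ptprc UMI were 95.7% marked, with an ATI-list sum of 880 CPM.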

How the data were processed

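Single-cell 3′ RNA-seq was performed on viable cells from tumors of 4 mice. Per the methods and the labels, the authors aligned reads to mm10 with GFP and TdTomato added using Cell Ranger 3.0.2, and the deposited values are raw UMI counts of 31055 features in 20351 cells (58624795 UMIs, at least 500 per cell). Samples were pooled, and cells were not assigned to mice here. The members, lists and tests were chosen with earlier results of these data known.

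Counts were summed over cells and divided by the summed UMIs (CPM). Intervals were exact Poisson, Clopper-Pearson or, for ratios, conditional binomial 95% intervals, all covering counting error only. Calls used a pseudocount of 10 CPM, a level of at least 50 CPM in either group and a 2-fold limit. For shares given as thinned, every cell was first reduced at random to 1000 UMIs (238 of 243 selected cells were deep enough). Other counts and shares of cells with a gene used all UMIs of a cell and are not matched for depth. Named genes were all listed genes, the 15 largest ratios in each direction among genes with UMIs in at least 10% of the cells of the higher group, rule, mitochondrial and ribosomal genes left out, the 10 highest against all other cells, and the 10 most like Hopx by Spearman correlation. Some items of the lists and of the genotype are not reported here. Doublets were kept. Scrublet in scanpy 1.11.5 called 217 of 19892 cells (1.09%), among them 2 selected cells. Promoters were RefSeq windows of GRCm38.p6. Scripts ran in Python 3.11.15 with numpy 2.4.6, scipy 1.17.1 and pandas 2.3.3, and were tested on simulated data.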

Additional observations from a re-analysis of the deposited data

How the results depend on the processing

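No paired analysis was possible because the matrix pools the mice. The removal of marked cells, called cells past 12 lists below, was chosen after seeing the data. So were the removal of cells with over 0.1% of UMIs in the 12 lists and the comparison with Hopx-negative ATII cells alone. No alternative turned the direction of the ATI, ATII or transitional lists, whereas the MHC list sum turned from a log2 ratio of 0.22 to -0.74 without cells past 12 lists. The ATI log2 ratio ran from 1.46 to 2.31, the ATII ratio from -2.66 to -1.82 and the transitional ratio from 1.14 to 2.62, against 1.67, -2.24 and 1.41. In the order ATI, ATII, transitional, the log2 ratios were 1.86, -2.16 and 1.23 with an upper limit on genes per cell, 2.13, -1.82 and 1.14 with at least 2 Hopx UMIs, 1.62, -2.66 and 1.35 with at most 2 ATII UMIs, and 1.59, -2.45 and 1.37 with the ATII genes at most 0.1% of UMIs. They were 1.84, -2.04 and 1.49 without cells past 11 lists (macrophages not among them), 2.03, -1.83 and 1.84 without cells past 12 lists, 2.00, -1.87 and 1.86 without cells over 0.1% in those lists, and 2.31, -1.96 and 2.62 against unmarked Hopx-negative ATII cells. Rescaling gave 1.49, -2.41 and 1.24 with totals without ATII genes, 1.46, -2.45 and 1.20 with the median of ratios, and 2.00, -2.02 and 1.16 with the mean of single-cell CPM. The ATII ratio was -2.31 with an epithelial sum of at least 5, and with at most 8 ATII UMIs it was -2.06, with a transitional ratio of 1.38.

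TdTomato, 4137 CPM, was at 4334 CPM with an epithelial sum of at least 5, 3978 with Epcam, Cdh1 and Cldn18 alone, 5066 with at least 2 Hopx UMIs, 3991 with at most 2 ATII UMIs, 3974 with the 0.1% ATII limit, 4435 without cells past 11 lists, 6166 without cells past 12 lists, 6059 without cells over 0.1% in them and 4798 as the mean of single-cell CPM. The number of cells fell from 243 to 161 under both removals by 12 lists. Genes called higher, 212, became 133 without cells past 11 lists, 138 with the median of ratios, 384 with a filter of 20 CPM and 469 with none, and genes called lower, 150, became 234 against unmarked Hopx-negative ATII cells, 243 with 20 CPM and 267 with no filter. The split of higher against lower calls thus turned with scaling, to 163 and 206 with totals without ATII genes and to 138 and 199 with the median of ratios. For the 70 of 85 single genes past 2-fold, 0 of 1260 values changed direction and 38 fell under 2-fold. The share of cells with Krt19 depended on depth, from 23.9% at 500 UMIs through 43.3% at 1000 to 59.2% at 2000. A gene with no UMI in the selected cells could still be present at up to 3.70 CPM, and the pooled matrix gives no error between mice.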
